A study of Anser cygnoides with 4 samples.

Results

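Cycling PAX7 satellite cells, as taken here, are dividing PAX7 cells of goose embryonic leg muscle in which no MYOG was detected. They were taken as barcodes with 300 to 6500 genes and 1000 to 50000 UMIs (unique molecular identifiers, each marking 1 captured RNA molecule) that held at least 2 UMIs of PAX7, none of MYOG and none of PTPRC, and at least 1 UMI each of 3 or more of 6 division genes (TOP2A, CDK1, MKI67, TPX2, CCNB2 and PLK1). Members were thus chosen by the measured UMIs of these 9 genes. In all, 3985 of 49503 barcodes (8.05%) met the rule, which were 30.3% of the 13133 barcodes with PAX7 and without MYOG and PTPRC. The E13, E15, E18 and E23 libraries held 602, 700, 1182 and 1501 of them, and values below follow this order of embryonic days. The cells set against them in each library, called non-cycling PAX7 cells here, held at least 2 UMIs of PAX7, none of MYOG and none of the 6 genes, and numbered 1527, 1298, 1199 and 1666.

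Satellite cells are the stem cells of skeletal muscle and carry the transcription factor PAX7. In embryonic muscle they multiply, and part of their progeny switches on MYOD1 and then MYOG, leaves the cell cycle and fuses into fibres. A dividing cell copies its DNA in S phase and separates the copies in mitosis after G2, and a different set of genes is switched on in each phase. D-type cyclins and retinoblastoma proteins govern entry into S phase, and CDK inhibitors restrain it. The roles given below for single genes are those known from other vertebrates, mostly mouse and human.

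The study asked how goose satellite cells (SMSCs) change across embryonic development. It prepared 1 droplet library for each of the embryonic days 13, 15, 18 and 23 from leg muscle of female Zhedong White geese. Each library came from a pool of embryos, 3 per stage by the sample labels and 4 by the methods of the study, so that embryos of a stage cannot be told apart. The cells were enriched by letting fibroblasts attach to plastic and were frozen and thawed before capture, so all groups share this treatment and no group is untouched tissue. All groups compared here came out of the same 4 libraries, and 1 library per stage allows no test between stages.

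The libraries held 128674910 to 155367545 UMIs, and the median barcode kept had 8402.5 to 11028 UMIs. Any pair of libraries shared 27 to 56 barcode sequences, and 2 pairs of libraries shared 1 member barcode each. Barcodes scored as likely doublets (droplets with more than 1 cell) stayed in.

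The rule fixed the levels of its own genes, so these are a description. TOP2A, the topoisomerase that untangles DNA, was detected in 95.02%, 93.6%, 89.6% and 92.9% of the cycling cells. CDK1, the kinase that drives mitosis, was detected in 94.9%, 92.6%, 94.4% and 89.2%. MKI67, which coats mitotic chromosomes, was detected in 77.4% at E13 and in 91.6%, 91.0% and 95.5% at the later stages. The mitotic cyclin CCNB2 (56.1% to 80.3%), the mitotic kinase PLK1 (54.3% to 71.6%) and the spindle factor TPX2 (65.9% to 81.0%) were found in fewer cells, and each of the 3 was found most often at E18. PAX7 reached 333, 640, 478 and 464 CPM in cycling cells, against 472, 827, 691 and 599 CPM in non-cycling cells. CPM are a gene's UMIs scaled to the same total in every group. PAX7 UMIs per cell were higher in cycling cells in every library. They were 4.75, 9.76, 7.15 and 8.11 in cycling cells, against 3.85, 7.21, 5.73 and 6.78 in non-cycling cells. The limit of 3 genes cut through a continuum. The 144, 117, 152 and 327 cells with exactly 3 of the genes had medians of 195, 202, 188 and 217 UMIs of replication and mitosis genes together, while the 255, 185, 229 and 341 cells with 2 of them, just outside the rule, had medians of 128, 136, 125 and 168.

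The label was checked with genes the rule did not use. MYF5 and MYOD1 are transcription factors of the muscle lineage. Barcodes with at least 4000 UMIs were thinned to 4000, so that cells of unlike depth could be compared, and shallower ones were left out. This left out 0, 2, 3 and 10 cycling cells and 44, 140, 71 and 78 non-cycling cells. After thinning, MYOD1 was found in 78.4%, 71.6%, 51.0% and 43.1% of cycling cells, against 79.2%, 75.6%, 48.3% and 50.0% of non-cycling cells. MYF5 was found in 44.9%, 44.4%, 39.1% and 48.6% of cycling cells, against 45.2%, 44.3%, 37.7% and 51.2% of non-cycling cells. Without thinning, the shares of cycling cells were 66.6% to 92.4% for MYOD1 and 71.5% to 77.3% for MYF5. In fibro-adipogenic cells, the connective tissue progenitors of muscle, taken as barcodes with at least 5 UMIs each of DCN and COL6A3 and no PAX7, MYOG or PTPRC, the thinned shares were 1.41% to 6.51% for MYOD1 and 1.41% to 3.51% for MYF5, at medians of 14755 to 19816.5 UMIs before thinning. Cycling cells thus carried both muscle factors far more often than fibro-adipogenic cells of the same libraries. This bears on the muscle lineage of the cells only. Progeny on the way to MYOG carry MYOD1 as well, so these shares cannot tell satellite cells from such progeny. Immune genes summed to 17.7 to 42.8 CPM in cycling cells and to 28.7 to 60.6 CPM in non-cycling cells, and Schwann genes to at most 3.76 CPM in cycling cells. The immune sums are not on equal terms, since only cycling cells had to lack the immune gene PTPRC. It was found in 10, 6, 5 and 13 non-cycling cells.

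Of the barcodes with PAX7 and without MYOG and PTPRC, the cycling share was 19.8% in the E13 library, then 26.0%, 37.5% and 35.4% in the later ones. The exact (Clopper-Pearson) 95% intervals were 18.4% to 21.2%, 24.3% to 27.7%, 35.8% to 39.2% and 34.0% to 36.9%, and like all intervals here they cover counting error only. The detection of 3 genes depends on depth. After thinning to 4000 UMIs, again without shallower barcodes, the shares were 10.0%, 19.8%, 25.1% and 20.6%. They were 10.5%, 17.5%, 27.4% and 21.0% when the PAX7 cells were chosen before thinning. E13 had the lowest share and E18 the highest in each of the 3 counts. Cells with all 6 genes made up 3.88%, 10.4%, 18.9% and 11.4% of the PAX7 cells, and cells with none made up 49.9%, 47.9%, 37.9% and 39.0%.

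**Figure D1:**
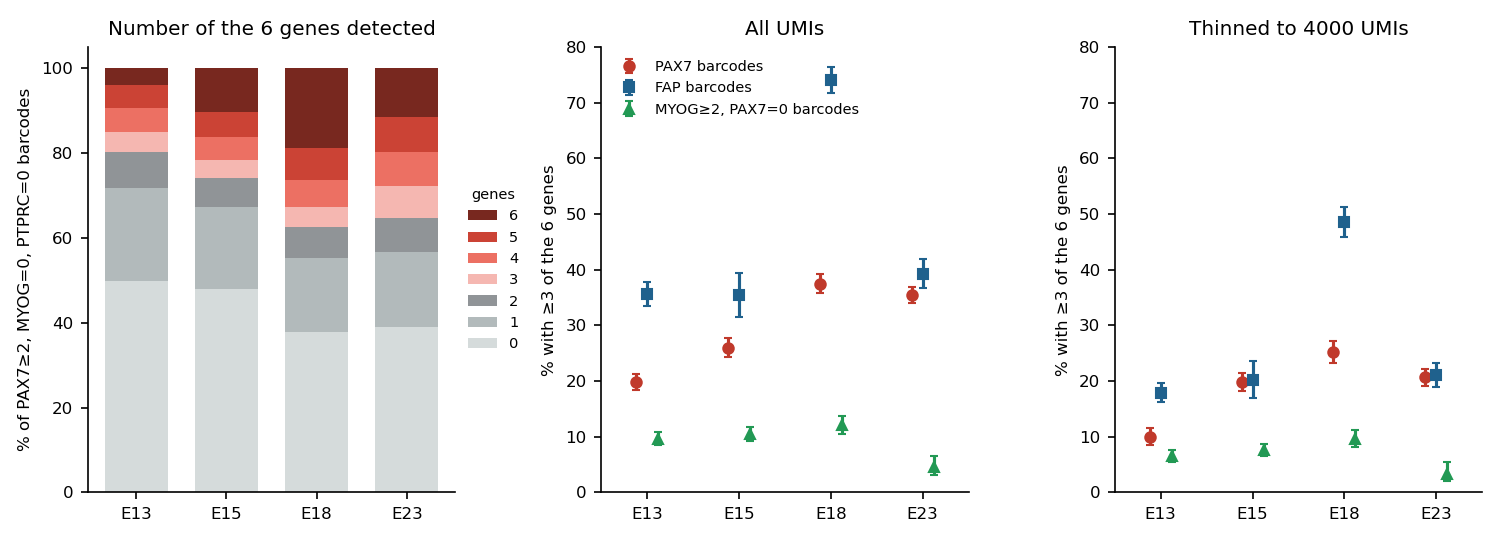
Left, stacked bars of the percentage of PAX7 barcodes in each library by the number of the 6 cycle genes detected; middle and right, the percentage with at least 3 genes in PAX7 barcodes (circles), fibro-adipogenic barcodes (FAP, squares) and MYOG barcodes without PAX7 (triangles), for all UMIs and after thinning to 4000 UMIs, with exact 95% intervals. PAX7 barcodes lie between the other 2 classes before thinning, from 19.8% at E13 to 37.5% at E18.

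In the same libraries, the share with at least 3 of the 6 genes was 35.6%, 35.4%, 74.1% and 39.3% in fibro-adipogenic cells and 9.64%, 10.5%, 12.1% and 4.61% in cells with at least 2 UMIs of MYOG and no PAX7. After thinning, fibro-adipogenic cells had 17.9%, 20.1%, 48.6% and 21.0%. The intervals of PAX7 and fibro-adipogenic cells overlapped at E15 and E23 after thinning and did not at E13 and E18. Among cells with at least 2 UMIs of PAX7, at least 1 of MYOG and no PTPRC the share was 27.8%, 41.2%, 33.7% and 26.5%. These were 329, 1338, 548 and 309 cells with PAX7 and at least 3 of the 6 genes that the rule left out. At E15 they outnumbered the 700 members.

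The cycling cells differed from the cells they were compared with in ways that bear on every gene below. Their median UMIs were 13556.5, 14901.5, 15485.5 and 15453, against 8137, 8280.5, 8563 and 10147 in non-cycling cells. To hold no MYOG UMI was therefore a stricter limit for cycling than for non-cycling cells, which bears on the muscle genes. The highest doublet scores (0.8% per 1000 barcodes of a library) fell on 23.8%, 16.6%, 17.3% and 14.3% of cycling cells, against 8.58%, 3.16%, 2.84% and 4.32% of non-cycling cells. At least 5 UMIs each of DCN and COL6A3, the 2 genes that defined fibro-adipogenic cells, were found in 12.6%, 5.14%, 12.8% and 19.99% of cycling cells, against 3.08%, 2.08%, 4.09% and 7.26% of non-cycling cells. Summed over the 9 fibro-adipogenic markers tested, the level was 1399, 1465, 1698 and 1959 CPM in cycling cells, against 1131, 1736, 1979 and 2103 CPM in non-cycling cells, and no defining marker was at 0. The single markers did not move alike. In the edgeR comparison below, 4 of the 9 had a positive log2 fold change, and the values ran from -0.75 to 0.96. At least 3 UMIs of ACTC1, the actin of early muscle fibres, were found in 13.1%, 19.3%, 3.72% and 6.86% of cycling cells, against 9.82%, 12.3%, 6.01% and 12.3% of non-cycling cells. The part of these differences in the results was not tested beyond the fits named beside them. A level in CPM can fall while the molecules per cell do not. Of the genes described below as lower in CPM, MYOD1, ID1, NUMB, CDKN1B, BTG1, BTG2, GADD45B and IGFBP4 had more UMIs per cell in cycling than in non-cycling cells in all 4 libraries, FOXO3, JAG1, COL4A1 and LAMA2 in 3, and FOXO1, MEF2C, ACTC1 and CALD1 in 2, while MYMK, TNNT3, MYL1 and ACTN2 had fewer in all 4.

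UMIs were summed over the cells of each group and library, and cycling sums were compared with non-cycling sums across the 4 libraries in edgeR (quasi-likelihood test, library as a block, Benjamini-Hochberg adjustment over 12543 genes, threshold 0.05). As a description, 84 of 85 replication genes and 139 of 140 G2 and mitosis genes were higher in the sums of cycling cells, with medians of 1.26 and 3.28 on the log2 scale. NUSAP1, which bundles spindle microtubules, had 172, 236, 225 and 177 CPM in cycling cells, against 2.25, 1.15, 1.31 and 0.848 CPM in non-cycling cells. PCNA, the sliding clamp of DNA polymerase, was at 245 to 659 CPM in non-cycling cells as well, and had 1016, 853, 702 and 541 CPM in cycling cells. Cells without any of the 6 genes therefore still held replication transcripts. CCNB1, the sister cyclin of CCNB2, moved little (21.6, 16.3, 22.3 and 21.0 CPM in cycling cells, against 18.1, 11.1, 15.2 and 21.9 CPM in non-cycling cells).

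Outside these 2 lists and the genes of the rule, 1401 genes were higher in cycling cells (11.2% of those tested) and 1718 were lower (13.7%), of which 269 and 304 changed more than 2-fold. Of these calls 566 and 524 held when any 1 library was left out. For the comparison called depth-matched below, equal numbers of cycling and non-cycling cells were drawn within bins of UMIs. This left 391, 373, 469 and 812 cells of each group. Their median UMIs were 11323 to 12712.5 in cycling and 11018 to 12654.5 in non-cycling cells. Many cycling cells were thus left out as well, and the part of this in lost or changed calls was not tested. In this fit 699 of the higher and 807 of the lower calls held. Of its 11199 tested genes 793 were higher and 1214 lower.

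Named genes had the largest rise among calls with 1 sign in all 4 libraries and at least 20 CPM on average in cycling cells. No floor was set in non-cycling cells, and a rise in every library was thus required. These genes were mostly parts of the division machinery that the lists had missed. ERCC6L, a translocase on the DNA threads between separating chromosomes, had 22.7, 27.2, 27.6 and 29.1 CPM in cycling cells, against 1.53, 0.265, 0.402 and 0.954 CPM in non-cycling cells. Every cycling sum lay far above its partner (log2 fold change 5.02 ± 0.31, adjusted p = 1.2e-04; ± gives the standard error throughout). ARHGAP19, which turns off the GTPase RHOA at division, rose by 4.90 ± 0.21, KNTC1, a kinetochore protein of the spindle checkpoint, by 2.87 ± 0.23, and WDR62, a spindle pole protein, by 2.60 ± 0.16. MIS12, which anchors the kinetochore, had 72.8, 129, 111 and 54.4 CPM in cycling cells, against 13.4, 21.5, 22.4 and 11.0 CPM in non-cycling cells (2.41 ± 0.07). The chromatin protein HMGB2 is described with the nuclear genes. CHTF8, part of a loader of the replication clamp, rose by 2.29 ± 0.10, PRR11 by 3.01 ± 0.17 and MTFR2, a regulator of mitochondrial fission, by 2.74 ± 0.17. SFRP1, a secreted antagonist of Wnt signals, was the only extracellular protein among these 10 genes. It had 20.4, 20.8, 24.8 and 28.1 CPM in cycling cells, against 5.63, 3.18, 3.82 and 4.93 CPM in non-cycling cells (2.43 ± 0.16, adjusted p = 1.6e-04). All 10 calls held without any 1 library and against depth-matched cells.

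The genes with the largest fall, named in the same way by their level in non-cycling cells, were of mixed kinds. KDM5B, a histone demethylase that removes active marks from promoters, had 34.1, 20.2, 19.5 and 22.2 CPM in cycling cells, against 74.997, 59.5, 69.6 and 68.7 CPM in non-cycling cells. The groups did not overlap, and the fall was 1.54 ± 0.11 on the log2 scale (log2 fold change -1.54, adjusted p = 2.7e-04). TNNT3, the fast troponin T of the contractile apparatus, had 10.1, 7.68, 6.505 and 24.8 CPM in cycling cells, against 21.2, 14.3, 46.9 and 79.2 CPM in non-cycling cells (log2 fold change -1.69 ± 0.28). Without cells that held 3 or more ACTC1 UMIs its log2 fold change was -0.73 (adjusted p = 0.038). HECW1, a ubiquitin ligase, changed by -1.68 ± 0.24, the ion channel gene CACNA1G by -1.48 ± 0.19, FGF14, an intracellular partner of sodium channels, by -1.46 ± 0.16, EPB41L3, which ties the membrane to the skeleton of the cell, by -1.43 ± 0.26, and the proteoglycan SPOCK1 by -1.42 ± 0.20. Against depth-matched cells the log2 fold change of CACNA1G was -0.95 (adjusted p = 0.044). BMF, which promotes cell death, had a log2 fold change of -1.67 ± 0.27 but of -0.68 (adjusted p = 0.088) against depth-matched cells. FAM13C (-1.57 ± 0.30) lost its call without the E15 library (adjusted p = 0.053), and against depth-matched cells its log2 fold change was -1.03. ENPP2, which makes lysophosphatidic acid, was at 51.9 and 239 CPM in cycling and non-cycling cells at E18, its highest values, and its log2 fold change of -1.43 ± 0.35 lost its call without the E18 library (-1.10, adjusted p = 0.090) or the E23 library (-1.12, adjusted p = 0.080).

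**Figure D2:**
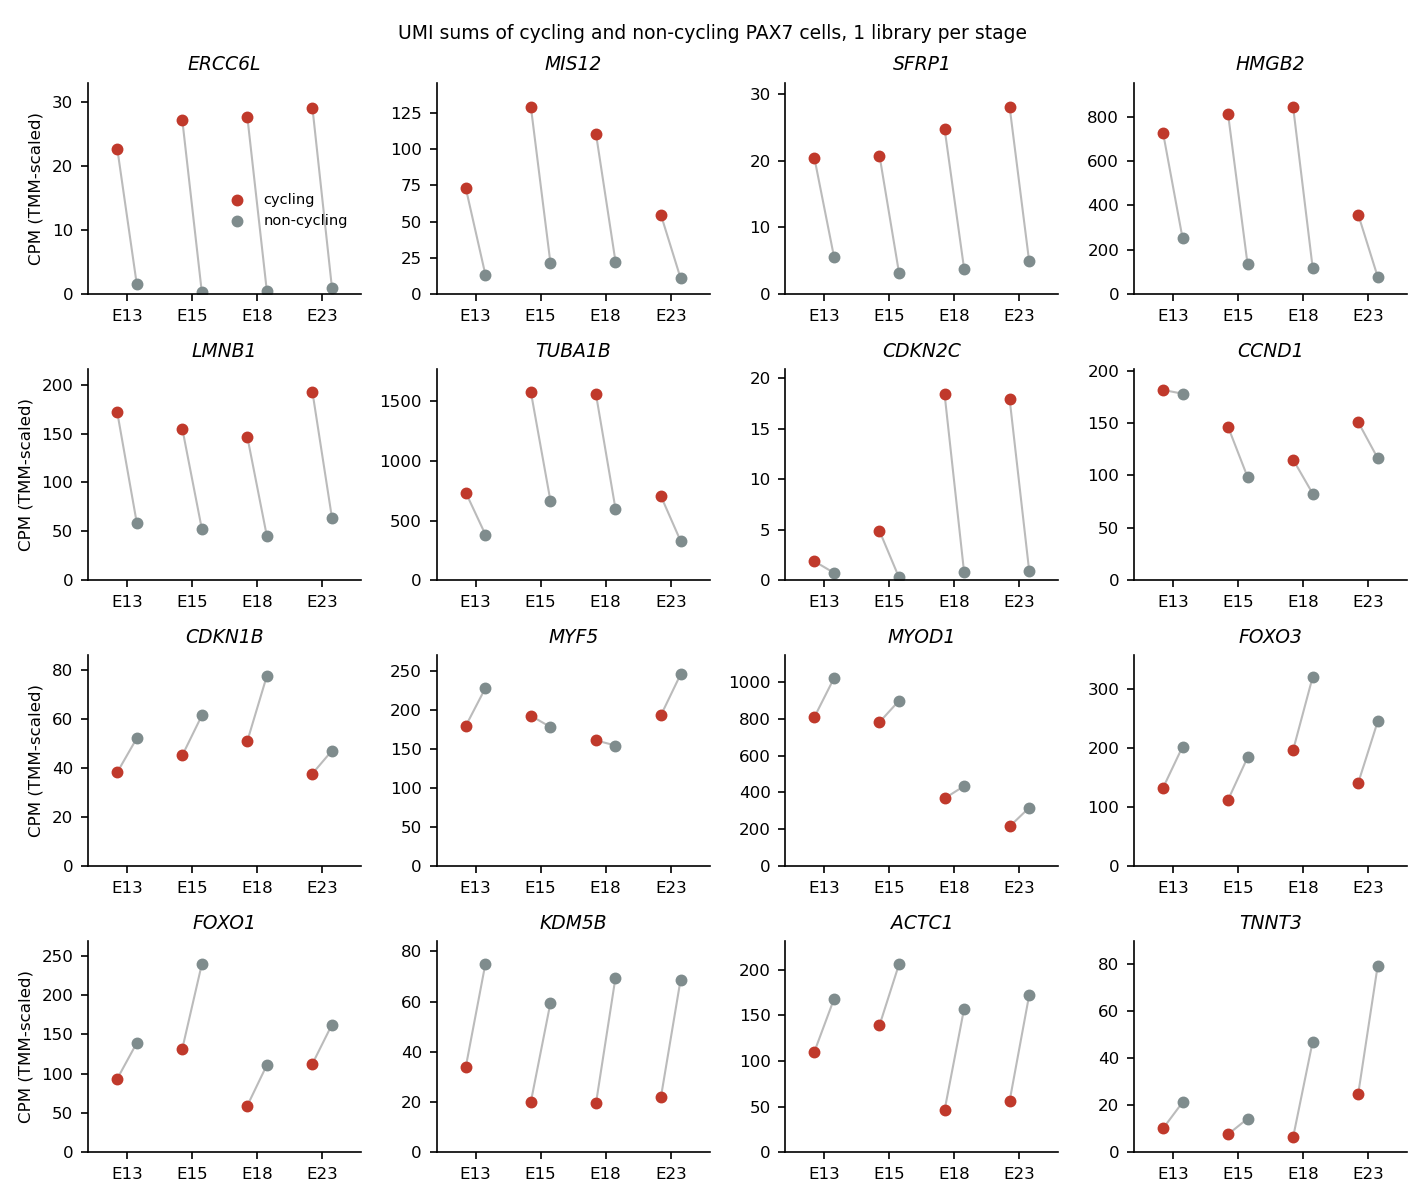
Each panel plots the CPM of 1 gene in the summed UMIs of cycling (red, left) and non-cycling (grey, right) PAX7 cells, with a grey line joining the 2 sums of a library, at E13, E15, E18 and E23. The rows run from division and nuclear genes that were higher in cycling cells to regulators and muscle genes that were mostly lower, and MYF5 changes direction between libraries.

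Genes of nuclear lamina, chromatin and RNA processing formed the list with the most rises. Members were chosen by division genes, and the list was not cleared of genes that follow the cell cycle. Its share of rises is therefore not independent of the rule. Of 40 tested genes 25 were higher in cycling cells (62.5%, against 11.2% of all tested genes) and 0 lower (against 13.7%). The median log2 fold change was 0.30, against -0.03 over all tested genes. At an unadjusted p under 0.05 the lower count was 1, and DESeq2 called 0 lower. SUV39H1, a histone methyltransferase of heterochromatin, had 12.005, 22.8, 18.7 and 13.9 CPM in cycling cells, against 1.93, 3.18, 4.52 and 3.71 CPM in non-cycling cells (2.31 ± 0.18). LMNB1, the lamin that lines the nucleus, had 172, 155, 146 and 193 CPM in cycling cells, against 58.7, 52.4, 44.9 and 63.8 CPM in non-cycling cells (1.60 ± 0.06, adjusted p = 4.1e-05). The groups of both genes were far apart in every library. HMGB2, a chromatin protein that bends DNA, had 729, 812, 844 and 359 CPM in cycling cells, against 253, 134, 119 and 77.6 CPM in non-cycling cells (2.29 ± 0.20). LMNB2 and LBR, the receptor that binds lamin B, rose by 0.999 ± 0.10 and 1.005 ± 0.11, and EZH2 (0.67 ± 0.08) and SUZ12 (0.81 ± 0.06), subunits of the complex that places repressive methyl marks on histone H3, rose together. All of these calls held without any 1 library and against depth-matched cells. The nucleolar genes NPM1 (0.40) and NCL (0.41) rose less, and their calls were lost without the E18 library (adjusted p = 0.063 and 0.052), for NPM1 also without the E15 library (0.053) and for NCL without the E23 library (0.052). Against depth-matched cells their log2 fold changes were 0.16 each, and only that of NPM1 passed the test (adjusted p = 0.044, against 0.095 for NCL).

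Among 25 tubulin and actin regulator genes 7 were higher (28%) and 4 lower (16%), against 11.2% and 13.7% of all tested genes. TUBA1B, an alpha tubulin, had 733, 1576, 1559 and 703 CPM in cycling cells, against 383, 666, 597 and 330 CPM in non-cycling cells (1.16 ± 0.08), and the beta tubulins TUBB (0.89 ± 0.08) and TUBB4B (0.87 ± 0.10) rose by similar amounts. CALD1, an inhibitor of actin and myosin, went the other way in all 4 libraries, with 284, 778, 251 and 215 CPM in cycling cells, against 484, 1189, 578 and 371 CPM in non-cycling cells (log2 fold change -0.84 ± 0.10). STMN2, a tubulin-binding protein at 0.566 to 3.15 CPM in cycling cells, had a log2 fold change of -1.35 that was -0.31 (adjusted p = 0.62) against depth-matched cells.

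The regulators of cell cycle entry split. Of 22 genes for D-type cyclins, CDKs and inhibitors 6 were higher (27.3%) and 7 lower (31.8%), against 11.2% and 13.7% of all tested genes. In each direction 4 of the calls held without any 1 library. CDKN2C, the inhibitor p18 of the kinases CDK4 and CDK6, was the strongest and rose although it restrains entry into S phase. It had 1.86, 4.87, 18.4 and 17.9 CPM in cycling cells, against 0.723, 0.265, 0.804 and 0.954 CPM in non-cycling cells (3.85 ± 0.40, adjusted p = 0.0013). Its level in cycling cells at E18 and E23 was several times that at E13. The retinoblastoma family genes RB1 (0.53 ± 0.07) and RBL1 (0.64 ± 0.07) and the cyclin CCNG2 (0.64 ± 0.10) rose. CDKN1B, the inhibitor p27, fell, with 38.2, 45.1, 51.0 and 37.7 CPM in cycling cells, against 52.1, 61.3, 77.5 and 47.0 CPM in non-cycling cells (log2 fold change -0.45 ± 0.07, adjusted p = 0.0049), and the log2 fold change was -0.33 (adjusted p = 0.052) against depth-matched cells. The antiproliferative genes BTG1 (-0.34) and BTG2 (-0.38) and the growth arrest gene GADD45B (-0.63 ± 0.06) fell and kept their calls in both checks. CCND1 (0.36 ± 0.09) lost its call without the E15, E18 or E23 library (adjusted p up to 0.10) and CCND3 (0.36 ± 0.09) without the E18 or E23 library (up to 0.10), and against depth-matched cells they were at 0.18 and -0.05. CDKN1A (p21) and CDKN1C (p57) did not pass the test (adjusted p = 0.34 and 0.088).

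Of 23 myogenic factors 0 were higher and 8 lower (34.8%, against 13.7% of all tested genes), with a median of -0.20. Against depth-matched cells 1 was higher and 2 were lower, against 793 and 1214 of all 11199 tested genes, and the median was 0.07. By DESeq2 0 were higher and 9 lower, against 1083 and 1604 of all 12543 tested genes. At an unadjusted p under 0.05 in edgeR 0 were higher. MYF5 had 180, 193, 161 and 194 CPM in cycling cells, against 228, 178, 155 and 246 CPM in non-cycling cells, so that its sign differed between libraries (log2 fold change -0.13 ± 0.09, adjusted p = 0.34). MYOD1 had 809, 781, 368 and 216 CPM in cycling cells, against 1019, 897, 435 and 317 CPM in non-cycling cells (log2 fold change -0.33 ± 0.07, adjusted p = 0.017). Its call was lost without the E23 library (-0.26, adjusted p = 0.068), and against depth-matched cells the sign was the opposite (0.20, adjusted p = 0.13). In UMIs per cell MYOD1 was higher in cycling cells throughout, at 11.5, 11.9, 5.50 and 3.77, against 8.30, 7.82, 3.61 and 3.59 in non-cycling cells. The differentiation factor MEF2C had 83.7, 64.6, 30.0 and 47.7 CPM in cycling cells, against 128, 81.4, 63.5 and 150 CPM in non-cycling cells (log2 fold change -0.93 ± 0.20), and lost its call without the E18 library (adjusted p = 0.053). MYMK, the fusion protein myomaker, was under 10 CPM in every sum and fell (-1.25 ± 0.17), though not past the threshold against depth-matched cells (-0.90, adjusted p = 0.059). ID1, an inhibitor of MYOD1 whose transcript follows BMP signals, had 677, 1497, 1092 and 530 CPM in cycling cells, against 886, 1744, 1858 and 747 CPM in non-cycling cells (-0.47 ± 0.09), and kept its call in both checks. PAX3 (-0.17, adjusted p = 0.20) and MYF6 (-0.07, adjusted p = 0.68) did not pass the test.

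Genes of muscle structure were lower in cycling cells: 24 of 38 fell (63.2%, against 13.7% of all tested genes) and 0 rose, with a median of -0.997. ACTC1 had 110, 139, 46.1 and 56.2 CPM in cycling cells, against 168, 206, 157 and 172 CPM in non-cycling cells (log2 fold change -1.14 ± 0.21). ACTN2, which crosslinks actin at the Z-disc, fell by 1.45 ± 0.18 and the myosin light chain MYL1 by 1.47 ± 0.21 on the log2 scale, the call of MYL1 being lost against depth-matched cells (adjusted p = 0.052). The list's UMIs per cell did not follow in all libraries, with 62.2, 96.2, 50.5 and 44.6 in cycling cells, against 38.8, 69.0, 46.0 and 48.1 in non-cycling cells. Of the 24 calls 8 held without any 1 library, and 12 held against depth-matched cells. Of the 1718 lower calls over all tested genes, 524 held without any 1 library and 807 against depth-matched cells. There 13 of 29 tested genes of the list and 1214 of all 11199 tested genes were lower. With the cells that held 3 or more ACTC1 UMIs left out of both groups, 9 of 32 tested genes of the list and 1579 of all 12354 were lower. In this fit ACTC1 was at -0.44, a value on which the filter itself acts, and the call of ACTN2 was lost (-0.19, adjusted p = 0.58). By DESeq2 and at an unadjusted p under 0.05, 0 genes of the list rose.

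In the list of quiescence and niche genes 1 of 25 rose (4%) and 3 fell (12%), among them the FOXO factors, against 11.2% and 13.7% of all tested genes, so the list as a whole was not above the background. FOXO3, a factor of the resting state, had 133, 112, 197 and 141 CPM in cycling cells, against 202, 184, 320 and 245 CPM in non-cycling cells (log2 fold change -0.71 ± 0.06, adjusted p = 3.9e-04). FOXO1 had 93.6, 132, 59.6 and 113 CPM in cycling cells, against 139, 239, 111 and 162 CPM in non-cycling cells (-0.71 ± 0.08). Against depth-matched cells both stayed past the threshold with smaller values, -0.23 for FOXO3 and -0.47 for FOXO1. The calcitonin receptor CALCR (-0.16, adjusted p = 0.27) and the signalling inhibitor SPRY1 (-0.08, adjusted p = 0.69), both known from resting satellite cells of the mouse, did not pass the test. CXCR4 rose by 0.80 at 3.93 to 4.81 CPM in cycling cells, and its call was lost without the E15, E18 or E23 library (adjusted p up to 0.11), by DESeq2 (0.052) and against depth-matched cells (0.42, adjusted p = 0.33).

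Notch signals keep satellite cells from differentiating. Of 17 pathway genes 1 was higher (5.88%) and 3 were lower (17.6%), shares near or below those over all tested genes. The ligand JAG1 fell, with 146, 81.2, 14.4 and 32.6 CPM in cycling cells, against 203, 102, 25.6 and 61.1 CPM in non-cycling cells (log2 fold change -0.62 ± 0.11, adjusted p = 0.0075), and its call held in every leave-one-out fit and against depth-matched cells (-0.65). NUMB, which counters the receptor, fell by 0.41 ± 0.08 on the log2 scale and was at -0.13 (adjusted p = 0.25) against depth-matched cells. The target HEY1 had 302, 452, 225 and 87.3 CPM in cycling cells, against 345, 456, 353 and 128 CPM in non-cycling cells, and missed the threshold (-0.35 ± 0.11, adjusted p = 0.052). HES1 (-0.24, adjusted p = 0.23) missed it as well.

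**Figure D3:**
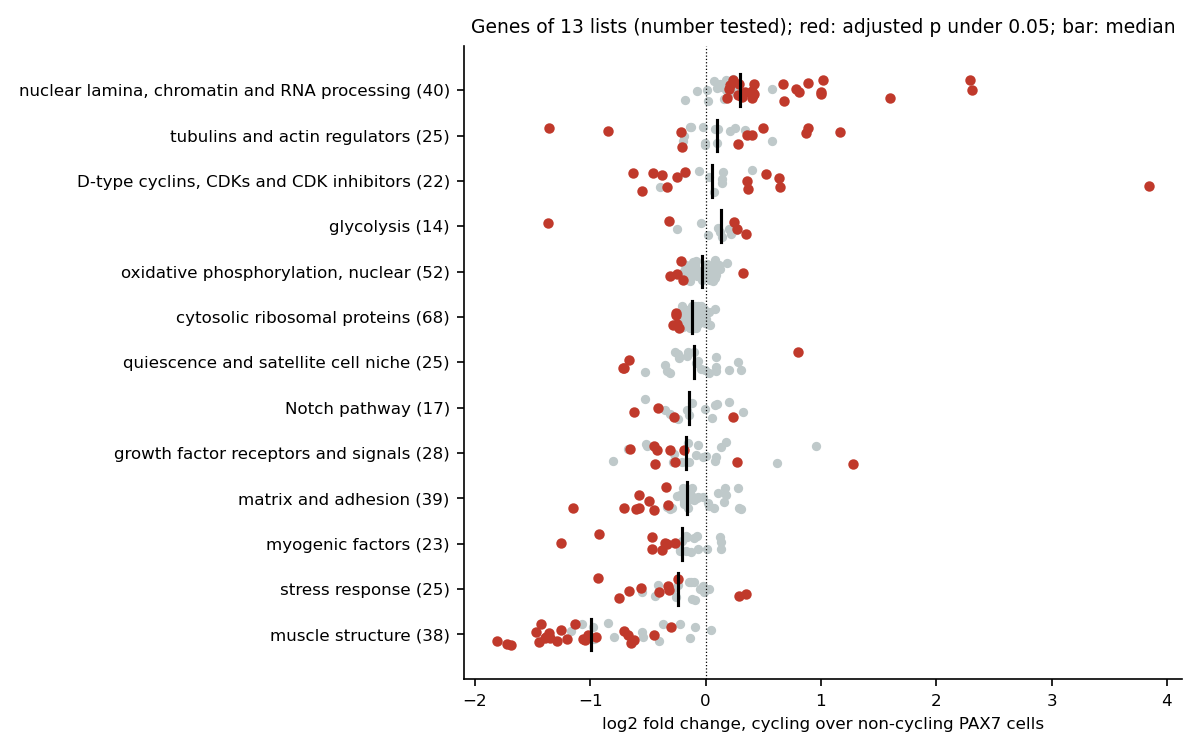
Points are the tested genes of 13 lists, with the number tested in brackets, at their log2 fold change of cycling over non-cycling PAX7 cells (red, adjusted p under 0.05; grey, not), and black bars are medians. The list of nuclear lamina, chromatin and RNA processing genes lies at the right with a median of 0.30, and muscle structure at the left with a median of -0.997.

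Among growth factor genes 2 of 28 were higher (7.14%) and 7 lower (25%), against 11.2% and 13.7% of all tested genes. Without the highest doublet scores the counts were 1 and 10, against 1367 and 1863 of all 12329 tested genes. HGF, a ligand that wakes satellite cells and is made by connective tissue, had 12.4, 6.83, 22.0 and 14.2 CPM in cycling cells, against 3.13, 4.95, 8.74 and 5.62 CPM in non-cycling cells (log2 fold change 1.28 ± 0.21). Its log2 fold change was 0.64 (adjusted p = 0.13) without cells holding DCN and COL6A3, 0.62 without the highest doublet scores and -0.28 (adjusted p = 0.54) against depth-matched cells. Its receptor MET did not pass the test (0.13, adjusted p = 0.24). IGFBP4, which binds insulin-like growth factors, fell by 0.44 ± 0.07 on the log2 scale in every leave-one-out fit and was at -0.25 against depth-matched cells.

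Of 39 matrix and adhesion genes 9 were lower (23.1%, against 13.7% of all tested genes) and 0 higher, with a median of -0.16. Against depth-matched cells 20 were lower, with a median of -0.40, where 1214 of all 11199 tested genes were lower. By DESeq2 0 were higher, and at an unadjusted p under 0.05 the higher count was 2. COL4A1, a chain of basement membrane collagen, had 374, 549, 160 and 184 CPM in cycling cells, against 492, 715, 275 and 331 CPM in non-cycling cells (log2 fold change -0.60 ± 0.09), with -0.40 against depth-matched cells. LAMA2, the laminin chain around muscle fibres, fell by 0.57 ± 0.08 on the log2 scale and was at -0.18 (adjusted p = 0.12) against depth-matched cells. Of 52 genes of oxidative phosphorylation 1 was higher (1.92%) and 4 lower (7.69%), against 11.2% and 13.7% of all tested genes. Of 14 glycolysis genes 3 were higher (21.4%) and 2 lower (14.3%), and 0 of the higher calls held without any 1 library. Of 68 ribosomal protein genes 0 were higher (0 by DESeq2 and at an unadjusted p under 0.05) and 5 lower (7.35%). Against depth-matched cells 27 ribosomal protein genes were lower, where 1214 of all 11199 tested genes were lower. Of 25 stress response genes 2 were higher (8%) and 8 lower (32%), against 11.2% and 13.7% of all tested genes. Only 1 of these calls, OSGIN1 (log2 fold change -0.67), held without any 1 library. It did not hold against depth-matched cells (-0.17, adjusted p = 0.52). There 0 genes of the list were higher and 3 lower, against 793 and 1214 of all 11199 tested genes.

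Of 4 endothelial markers tested 2 were higher (50%) and 1 lower (25%) in cycling cells, against 11.2% and 13.7% of all tested genes. ERG, an endothelial transcription factor, had 30.1, 24.3, 55.4 and 130 CPM in cycling cells, against 16.3, 7.87, 12.6 and 76.7 CPM in non-cycling cells (log2 fold change 1.29 ± 0.22, adjusted p = 0.0077), and the VEGF receptor FLT1 rose by 1.11 ± 0.20 at 3.38 to 10.2 CPM. Against depth-matched cells neither passed the test (adjusted p = 0.16 and 0.52). EGFL7, a protein secreted by endothelial cells, was lower (log2 fold change -0.93 ± 0.22, adjusted p = 0.025), also against depth-matched cells, and lost its call without the E15, E18 or E23 library (adjusted p up to 0.12). The endothelial list summed to 36.6, 31.5, 59.6 and 160 CPM in cycling cells, against 19.6, 12.5, 22.1 and 97.0 CPM in non-cycling cells, most of it ERG, and 0 to 2 of its 8 genes were at 0 in the cycling cells of a library.

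Cycling cells were next ranked within each library by the share of their replication and mitosis UMIs that belonged to G2 and mitosis genes. The 200, 233, 394 and 500 cells of the top group of 3 equal groups, called mitotic here, had median shares of 64.7%, 73.2%, 76.7% and 71.4%, and the equal numbers of the bottom group, called replicating, had 43.8%, 40.1%, 48.0% and 40.9%. Both names are relative to the cells of the same library, and both groups held replication as well as G2 and mitosis transcripts. At E18 the shares of replicating cells reached 58.6%, within the range of the middle group at E13 (51.2% to 59.9%). The ranking used the 2 cycle lists, so only other genes were tested. The highest doublet scores fell on 24.0%, 18.0%, 10.2% and 8.4% of mitotic cells, against 22.0%, 17.6%, 21.8% and 14.0% of replicating cells, and the part of this in the result was not tested. Of 11437 genes 1004 were higher in mitotic cells (8.78%) and 1243 lower (10.9%), and 357 and 407 of these calls held when any 1 library was left out.

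CDKN2C had 4.19, 11.4, 40.9 and 48.7 CPM in mitotic cells, against 0.364, 0.573, 3.21 and 2.65 CPM in replicating cells (log2 fold change 3.95 ± 0.23, adjusted p = 1.2e-07). It was the named gene with the largest difference and was higher in mitotic cells in every library, although its lowest values in replicating cells, at E13 and E15, rested on 3 UMIs or fewer. HMGB2 (1.94 ± 0.13) and ARHGAP19 (1.94 ± 0.15) were higher in mitotic cells, as were POC5, a centriole protein (1.90 ± 0.17), and ARL6IP1, which shapes the endoplasmic reticulum (1.88 ± 0.12). ALKBH2, which repairs alkylated DNA, was the named gene that fell most and had 4.19, 2.86, 2.60 and 2.13 CPM in mitotic cells, against 20.01, 44.7, 25.3 and 19.2 CPM in replicating cells (log2 fold change -3.23 ± 0.25). DDX11, a helicase of sister chromatid cohesion (-1.63 ± 0.17), SHMT1, an enzyme of one-carbon metabolism (-1.76 ± 0.15), and the transcription factor ZNF367 (-1.91 ± 0.14) fell as well. MTNR1A, a melatonin receptor, had 19.9, 18.0, 12.8 and 12.03 CPM in mitotic cells, against 63.7, 73.7, 46.9 and 62.7 CPM in replicating cells (-2.03 ± 0.11), with no overlap. All 10 calls held without any 1 library.

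Of 21 entry regulators 5 were higher (23.8%) and 4 lower (19.05%) in mitotic cells, against 8.78% and 10.9% of all tested genes. The other 12 did not pass the test. CCND3 had 20.2, 14.9, 23.0 and 29.1 CPM in mitotic cells, against 45.8, 43.9, 41.5 and 66.8 CPM in replicating cells (log2 fold change -1.16 ± 0.10), and RB1 (-0.45 ± 0.06), RBL1 (-0.78 ± 0.13) and CCND2 (-0.32 ± 0.06) fell with it. CDKN1B went the other way, with 46.1, 61.1, 61.8 and 59.3 CPM in mitotic cells, against 31.3, 31.8, 42.5 and 28.1 CPM in replicating cells (0.80 ± 0.11), and CCNG2 rose by 0.93 ± 0.17. CCND1 did not pass the test (-0.14, adjusted p = 0.34).

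Of the 40 genes of nuclear lamina, chromatin and RNA processing 17 were higher (42.5%) and 5 lower (12.5%) in mitotic cells, against 8.78% and 10.9% of all tested genes. LMNB2 (0.75 ± 0.04), LBR (0.86 ± 0.07) and HMGB1 (0.65 ± 0.04) were higher, whereas SUZ12 (-0.61 ± 0.08) and its partner EED (-0.36 ± 0.07) were lower. LMNB1 had 163, 169, 158 and 195 CPM in mitotic cells, against 176, 137, 140 and 202 CPM in replicating cells, and did not pass the test (0.07 ± 0.06, adjusted p = 0.44). TUBB (0.45 ± 0.04) and STMN1, a regulator of microtubules (0.59 ± 0.09), were higher and CALD1 (-0.83 ± 0.10) lower.

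Of 23 myogenic factors 8 were higher (34.8%) and 1 lower (4.35%) in mitotic cells, against 8.78% and 10.9% of all tested genes. MSC, a repressor of myogenic transcription, had 143, 242, 378 and 325 CPM in mitotic cells, against 96.4, 191, 276 and 141 CPM in replicating cells (log2 fold change 0.67 ± 0.11), and it was the only call of the list to hold without any 1 library. ID3 (0.14, adjusted p = 0.048) lost its call without the E13, E15 or E23 library (adjusted p up to 0.22). MYF5 (-0.02, adjusted p = 0.86) and MYOD1 (0.27, adjusted p = 0.11) did not pass the test. Of 39 matrix genes 13 were lower (33.3%) and 1 higher (2.56%) in mitotic cells, against 10.9% and 8.78% of all tested genes. Of the 9 fibro-adipogenic markers tested 4 were lower (44.4%, against 10.9% of all tested genes) and 0 higher, with a median of -0.31. Their part in the matrix result was not tested. COL6A3, a chain of microfibrillar collagen, had 296, 223, 169 and 260 CPM in mitotic cells, against 306, 309, 302 and 521 CPM in replicating cells (-0.61 ± 0.11), and FN1, fibronectin, fell by 0.37 ± 0.06 on the log2 scale.

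**Figure D4:**
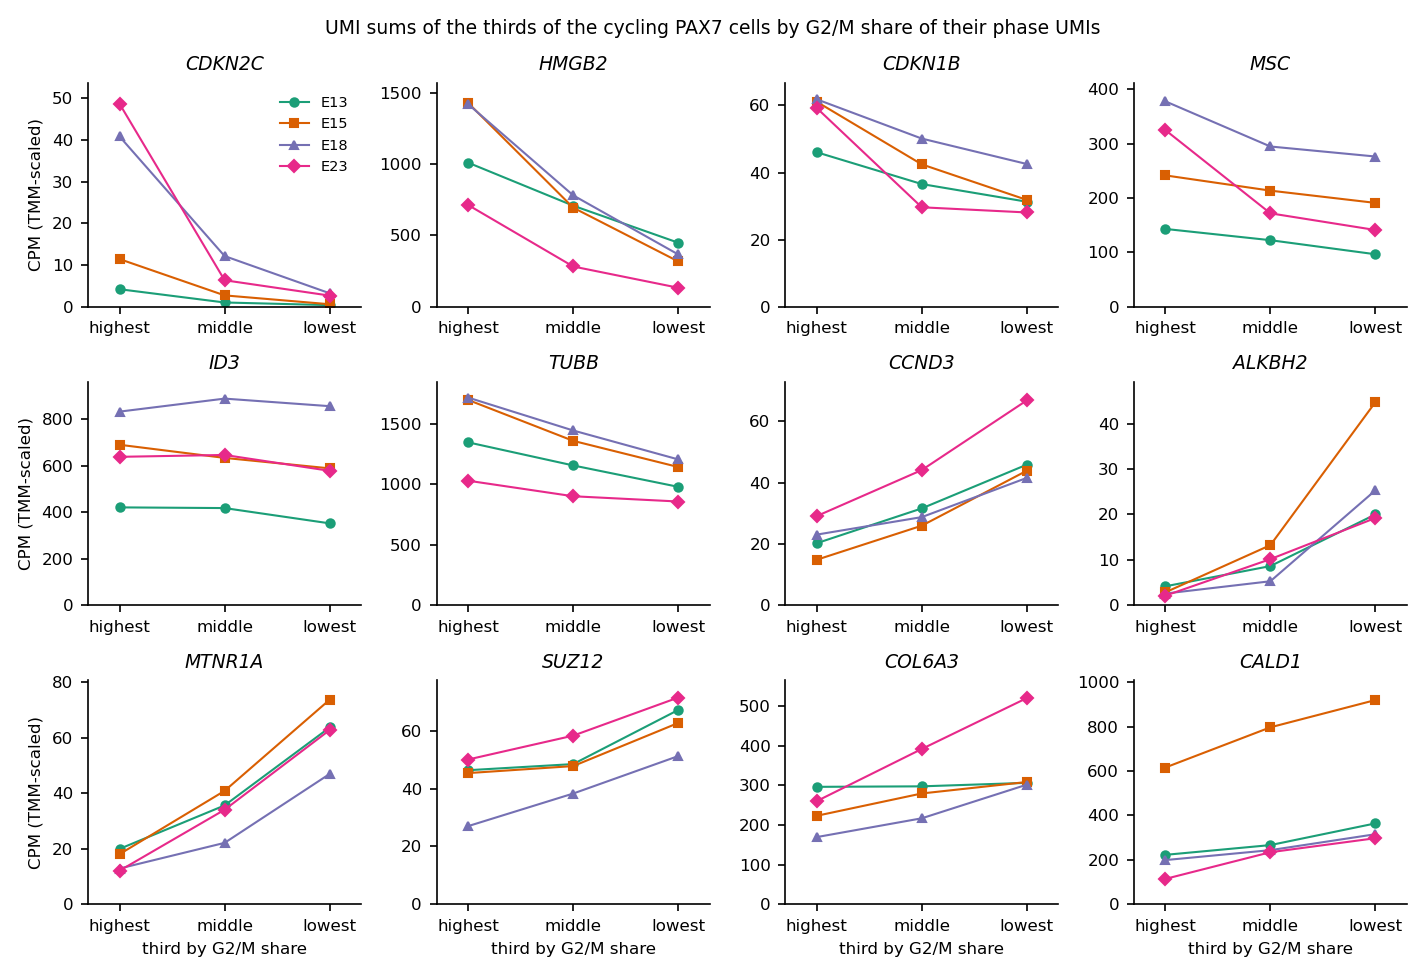
Lines join the CPM of 12 genes in the highest, middle and lowest of 3 equal groups of the cycling PAX7 cells by G2 and mitosis share, 1 line per library. CDKN2C, HMGB2 and CDKN1B slope down from the highest group, and CCND3, ALKBH2 and MTNR1A slope up.

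The same comparison was made in fibro-adipogenic cells, another dividing cell type of these libraries. They were split by the same 6 genes into 691, 208, 1051 and 520 cycling and 577, 171, 148 and 441 non-cycling cells, and the difference between the 2 cycling effects was tested as an interaction in edgeR. Of 13037 genes 43 had a higher log2 fold change in PAX7 cells (0.33%) and 14 a lower one (0.107%). Few differences between the 2 cell types thus passed the test. A gene that missed the threshold is not thereby shown to act alike in both. HMGB2 (-0.50, adjusted p = 0.41), LMNB1 (0.20, adjusted p = 0.47) and CDKN2C (1.78, adjusted p = 0.39) did not pass.

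EBF2, a transcription factor of mesenchymal cells, had 44.7, 23.5, 14.7 and 15.4 CPM in cycling PAX7 cells, against 12.1, 7.37, 3.19 and 4.84 CPM in non-cycling PAX7 cells. In fibro-adipogenic cells it was far more abundant, with 287, 337, 224 and 300 CPM in cycling and 312, 459, 274 and 366 CPM in non-cycling cells (difference of log2 fold changes 2.11 ± 0.12, adjusted p = 7.4e-06). The LIM protein gene FHL5 had 10.8, 1.09, 2.15 and 3.13 CPM in cycling and 2.01, 0.347, 0.290 and 1.03 CPM in non-cycling PAX7 cells, against 33.1 to 60.8 CPM in cycling and 42.5 to 85.7 CPM in non-cycling fibro-adipogenic cells (2.49 ± 0.23). These were the only 2 calls to hold without any 1 library. Both genes are more abundant in fibro-adipogenic cells, and cells with DCN and COL6A3 were more frequent among cycling PAX7 cells, as given above. Without PAX7 cells that held DCN and COL6A3 the differences were 1.58 for EBF2 and 1.56 for FHL5 (adjusted p = 0.035), and HGF, at 1.67 with all cells, was at 1.04 (adjusted p = 0.087).

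Other genes had a lower log2 fold change in PAX7 than in fibro-adipogenic cells. SIPA1L2 and CLU were among them, and both fell in cycling PAX7 cells in every library. SIPA1L2, a regulator of the GTPase RAP, had 82.4, 90.4, 109 and 139 CPM in cycling and 130, 202, 269 and 290 CPM in non-cycling PAX7 cells. In fibro-adipogenic cells it had 38.1, 17.0, 66.4 and 71.1 CPM in cycling and 41.7, 25.1, 57.4 and 91.1 CPM in non-cycling cells. The difference was -0.88 ± 0.16 (adjusted p = 0.043) and lost its call without the E15, E18 or E23 library (adjusted p up to 0.15). CLU, the chaperone clusterin, had 105, 299, 465 and 190 CPM in cycling and 144, 564, 850 and 323 CPM in non-cycling PAX7 cells, against 62.4, 189, 377 and 126 CPM in cycling and 61.8, 152, 319 and 150 CPM in non-cycling fibro-adipogenic cells (-0.83 ± 0.13), and lost its call without the E15 or E18 library (adjusted p = 0.13 each).

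**Figure D5:**
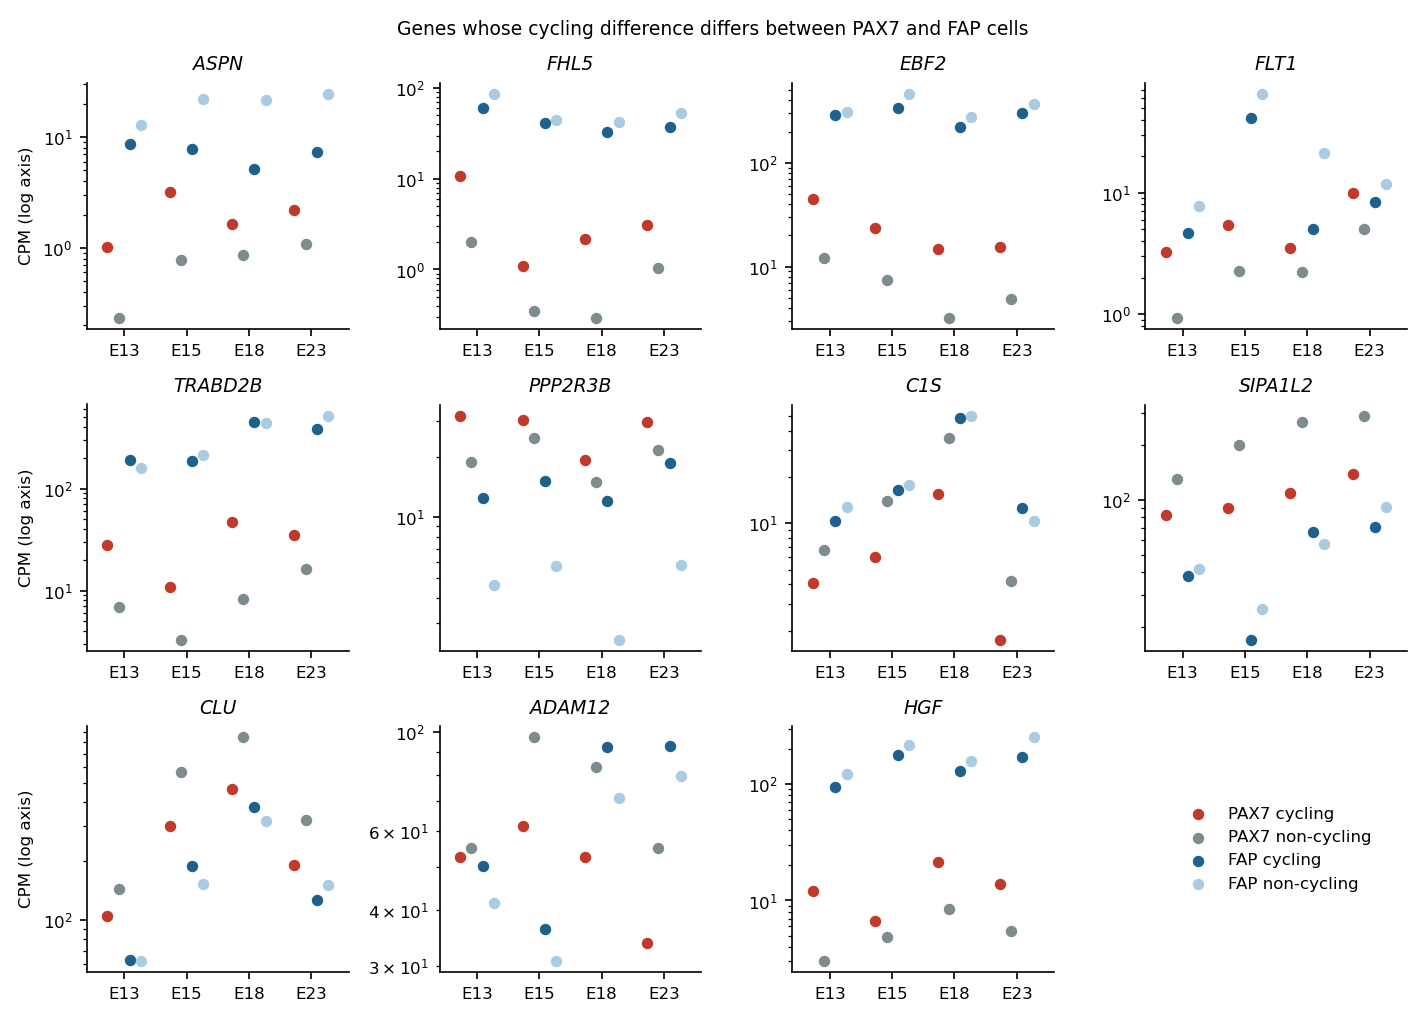
Points are the CPM (log axis) of 11 genes in cycling and non-cycling PAX7 cells (red and grey) and cycling and non-cycling fibro-adipogenic cells (FAP, dark and light blue) of each library. EBF2, FHL5 and HGF are highest in fibro-adipogenic cells and higher in cycling than in non-cycling PAX7 cells in all 4 libraries.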

How the data were processed

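The deposited matrices hold raw UMI counts. The authors produced them with Cell Ranger, version 7.1.0 by the submitters' processing notes and 9.0.0 by the headers of the count files. Stage was taken from the age labels, since all sample titles give day 13 with the stage in brackets. The members and gene lists were chosen with earlier results of these data known. Barcodes were filtered as stated in the report, scrublet scores came from scanpy 1.11.5, and counts were summed per library and group. The 3 comparisons were fitted in edgeR 4.0.16 (R 4.3.3; TMM, filterByExpr, quasi-likelihood test, library as a block), with Benjamini-Hochberg adjustment over all tested genes. CPM of single genes are TMM-scaled and differ slightly between fits. CPM summed over a list are scaled by total UMIs only, without TMM. The block pairs sums from the same library, and in the comparison with fibro-adipogenic cells it is library by cell class. The PAX7 and fibro-adipogenic cycling effects of a library were therefore not paired with each other. Named genes were the 10 with the largest rise and the 10 with the largest fall (5 and 5 in the other 2 comparisons) among calls with 1 sign in all 4 libraries and at least 20 CPM in the higher group, without unnamed loci, plus genes of the lists. The scripts were tested on simulated data. The tables hold 50646 barcodes and 25487 genes. With the block, p-values measure how the differences within a library vary across 4 libraries of pooled embryos at different stages. Alternatives were DESeq2 1.42.0, no TMM, no low-count filter, no block, each library left out, depth-matched cells, other limits of the rule, and cells with high doublet scores, ACTC1 or DCN and COL6A3 left out. Sequences and coordinates were not used here. Results for 1 gene are not reported here.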

Additional observations from a re-analysis of the deposited data

Results flagged for a closer look

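The log2 cycling difference (cycling over non-cycling) differed between PAX7 cells and fibro-adipogenic cells by the edgeR interaction test for 11 genes named here, with each value being that in PAX7 cells minus that in fibro-adipogenic cells. It was larger in PAX7 cells for the matrix protein ASPN (2.81), FHL5 (2.49), EBF2 (2.11), the VEGF receptor FLT1 (2.03), TRABD2B, a protease of Wnt proteins (1.85), and HGF (1.67). It was lower (less positive or more negative) in PAX7 cells for PPP2R3B, a subunit of the phosphatase PP2A (-1.14), the complement protease C1S (-1.08), SIPA1L2 (-0.879), CLU (-0.832) and the metalloprotease ADAM12 (-0.813). EBF2 and FHL5 kept their calls without any 1 library, and each of the others lost its call in at least 2 of the 4 fits that left out a library. Without PAX7 cells that held DCN and COL6A3, 3 of the 10 genes other than HGF lost their call, as did HGF. ASPN was scarce in PAX7 cells, with 1.02, 3.17, 1.65 and 2.195 CPM in cycling cells and less in non-cycling cells. In fibro-adipogenic cells ASPN had 8.61, 7.80, 5.14 and 7.30 CPM in cycling cells, against 12.9, 22.0, 21.75 and 24.45 CPM in non-cycling cells. FHL5, EBF2 and FLT1 were also lower in cycling than in non-cycling fibro-adipogenic cells in every library. The values of these genes thus combine a rise in PAX7 cells with a fall in fibro-adipogenic cells. PPP2R3B was higher in cycling cells of both types, with 31.9, 30.2, 19.2 and 29.5 CPM in cycling and 18.9, 24.6, 14.9 and 21.5 CPM in non-cycling PAX7 cells, against 12.4, 15.1, 12.02 and 18.5 CPM in cycling and 4.64, 5.72, 2.47 and 5.80 CPM in non-cycling fibro-adipogenic cells.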

How the results depend on the processing

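Sums of a library, or of a library and cell class in the comparison with fibro-adipogenic cells, were paired by the block. Without the replicate block, 96 genes were higher and 3 lower in cycling than in non-cycling cells (1401 and 1718 with it), 0 and 0 differed between PAX7 and fibro-adipogenic cells (43 and 14), and 7 were higher and 5 lower in mitotic than in replicating cells (1004 and 1243). Leaving out 1 library gave 684 to 1344 higher and 768 to 1589 lower genes in the first comparison, with the smallest counts without E15 and E23, 4 to 16 and 0 to 16 in the second, with the smallest without E15, and 504 to 851 and 629 to 1110 in the third. Depth-matched cells gave 793 higher genes in the first comparison. Against them 5 named genes with a call changed sign, CCND3 (-0.046), MYOD1 (0.20), HGF (-0.28), the fringe enzyme LFNG (-0.10, 0.24 with all cells) and the collagen COL15A1 (0.16, -0.49 with all cells). Another 27 kept their sign but lost their call. These were among 115 named genes, which include genes without a call with all cells. TNNC1, cardiac troponin C, was at 0.38 without cells holding ACTC1 (-0.67 with them). For the difference from fibro-adipogenic cells, DESeq2 called 92 higher and 52 lower genes, no filter on low counts 131 and 185, and a minimum of 10 UMIs of DCN and COL6A3 33 lower, while leaving out PAX7 cells with DCN and COL6A3, chosen after seeing the data, gave 18 higher. Between mitotic and replicating cells DESeq2 called 571 higher and 724 lower genes, and 2 equal groups in place of 3 gave 520 and 660. The pooled share of cycling cells, 30.3%, was 27.9% with at least 1 PAX7 UMI, 32.7% with 3, 38.0% with 2 of the 6 genes, 24.7% with 4, 19.4% after thinning and 27.9% without the highest doublet scores. The cause of these changes was not tested. The search for promoter motifs was not run.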
